A study of Mus musculus with 6 samples.

Results

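The Schlafen genes of the mouse (Slfn1, Slfn2, Slfn3, Slfn4, Slfn5, Slfn8, Slfn9, Slfn14 and the pseudogene Slfn10-ps) and the neighbouring long noncoding RNA gene AA465934 were examined in RNA-seq of colorectal tumors that had or lacked the tumor suppressor gene Trp53 in the epithelium. These 10 genes, of 54167 rows in the expression table, were matched by gene symbol. They had been chosen by measured values, since the family and AA465934 were picked with their difference between the 2 genotypes known. Their differences between genotypes are therefore given below as a description and support nothing on their own. The number of members that the fit over all genes called is printed beside the share of all genes called. It is printed again for the alternative settings at the end, beside their calls over all genes, and nothing is read from it. The study compared 3 tumors of Trp53fl/fl mice with 3 tumors of VP mice, which carried Pvillin-Cre in addition to Trp53fl/fl. All the mice were C57BL/6J males, 8 weeks old at the start, and all received azoxymethane (AOM, a colon carcinogen) at 10 mg/kg and then 7-day cycles of 2.5% dextran sulfate sodium (DSS, which injures the colon lining). Tumors were taken on day 98. Both groups carried the floxed Trp53 alleles and both had AOM and DSS, so that Cre was the planned difference. The villin promoter drives Cre in intestinal epithelial cells, and immune, vascular and stromal cells of a VP tumor keep Trp53. Levels are in TPM, a unit of transcript abundance that is scaled for transcript length and library total, so that levels can be compared between genes. The deposited table gives no read counts, so the depth behind each value is unknown and no counting interval can be given.

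Schlafen proteins share a core domain that in several members binds or cuts RNA. The mouse family has short members (Slfn1 and Slfn2), intermediate members (Slfn3 and Slfn4) and long members that add a helicase-like part (Slfn5, Slfn8, Slfn9 and Slfn14). Many are interferon-inducible, and the family is best known from T cell quiescence, myeloid cell differentiation and the restriction of viruses. In an intact tumor the same RNA can come from epithelial, myeloid, lymphoid or endothelial cells, and in such bulk samples fewer cells of a type cannot be told apart from less RNA per cell.

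AA465934 was the member with the highest level in VP tumors relative to Trp53fl/fl tumors, at a 10.5-fold ratio of the group means. Slfn9 stood at the other end, with a mean 6.82-fold lower in VP tumors. Between them, Slfn5, Slfn1 and Slfn2 were higher in every VP tumor than in any Trp53fl/fl tumor, and Slfn8 was lower in every VP tumor. Slfn4 and Slfn3 overlapped between the genotypes, Slfn10-ps was too low to pass the filter on low values, and Slfn14 was listed at 0 in all 6 tumors. Of the 8 members that passed the filter on low values (at least 1 TPM in at least 3 tumors), 4 had all VP tumors above all Trp53fl/fl tumors, against 6.03% of the 15117 genes tested. All VP tumors lay below all Trp53fl/fl tumors for 2 of the 8, against 13.3% of the genes tested. Nothing is read from these counts, since the same contrast was known when the members were picked.

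**Figure D1:**
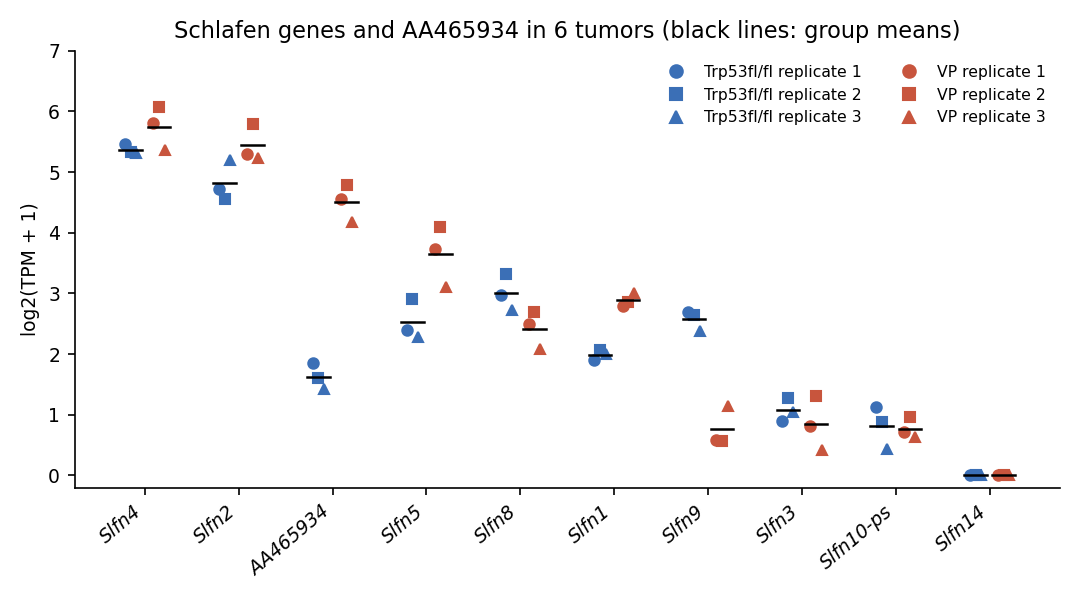
Level of each member in each tumor, as log2(TPM + 1), with Trp53fl/fl tumors in blue, VP tumors in red, 1 symbol per replicate and black lines for the group means on that scale. AA465934 and Slfn9 have the widest gaps between the genotypes, in opposite directions, and Slfn14 is at 0 in every tumor.

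Trp53, the targeted gene, was listed at 125, 99.3 and 147 TPM in Trp53fl/fl and at 38.5, 32.8 and 27.8 TPM in VP, a log2 difference of -1.87 with an adjusted p of 0.0207 by limma. All libraries therefore followed their labels. Over all 15117 genes tested the median log2 difference, VP minus Trp53fl/fl, was -0.07, and limma called 12 genes higher and 13 lower in VP tumors, 0.165% of the genes tested. AA465934 and Slfn9 were among those genes, which only restates how the members were picked, since the call comes from the same contrast. At an unadjusted limma p under 0.05, 4.51% of the genes tested were higher in VP tumors and 8.0% were lower. The counts of other genes given below are to be set against these shares. The labels do not say that the 3 tumors of a group came from 3 animals, so the p-values measure the spread between these samples.

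The members occupy 343 kb of chromosome 11, chr11:82951349-83294632 in GRCm38 coordinates, 13.4 Mb from the floxed Trp53 gene on the same chromosome. Slfn5, Slfn9, Slfn8, Slfn10-ps, Slfn2, Slfn1, Slfn4, Slfn3, Slfn14 and AA465934 follow each other in that order. Slfn9, Slfn8, Slfn10-ps and Slfn14 are on the minus strand and the other members on the plus strand.

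AA465934 (ENSMUSG00000093483, chr11:83291699-83294632, plus strand) is annotated as a processed transcript without a reading frame and as a long noncoding RNA in RefSeq. The snoRNA gene Snord7 lies within its bounds and was listed at 0 in all 6 tumors. The libraries were poly(A)-selected and size-selected, so a 0 for so short an RNA does not show whether it was present. AA465934 was listed at 2.60, 2.03 and 1.69 TPM in Trp53fl/fl and at 22.5, 26.7 and 17.0 TPM in VP. The lowest VP tumor was thus far above the highest Trp53fl/fl tumor, and the groups did not come near to overlapping. The means were 2.11 ± 0.460 TPM (SD, n = 3) and 22.1 ± 4.82 TPM (SD, n = 3), and the log2 difference on the log2(TPM + 1) scale was 2.88 with a standard error of 0.20. That scale understates the change of low genes. No 75-base stretch of an AA465934 transcript was found in a transcript of another gene.

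The promoter of AA465934 is shown because this gene had the widest difference in the region. It is the RefSeq window from 250 bases before to 50 bases after the start, chr11:83291449-83291748 in GRCm38.p6, plus strand, 5′ to 3′, and no motif searched is in it, so that no base is in capitals.
AA465934 promoter: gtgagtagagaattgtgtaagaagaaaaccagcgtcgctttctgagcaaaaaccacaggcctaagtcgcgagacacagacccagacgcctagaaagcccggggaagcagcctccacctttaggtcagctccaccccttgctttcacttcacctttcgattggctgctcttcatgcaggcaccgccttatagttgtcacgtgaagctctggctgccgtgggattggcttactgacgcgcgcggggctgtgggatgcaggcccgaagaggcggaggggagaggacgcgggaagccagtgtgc

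Motif searches covered both strands of these windows for 9 of the 10 members. The first was an interferon-stimulated response element, written as GAAA, then any 2 bases, then GAAA, which is found in 3.44% of the 32851 promoters in the RefSeq table. The second was the gamma-activated site TTCNNNGAA, found in 8.30% of promoters, and the third a p53 half-site, found in 8.36%. The response element was present at Slfn5, Slfn8 and Slfn9. Neither of the other motifs was present in the window of any member. A match is a description of the letters and not a measured binding site, and no match says only that these letters are not in this window.

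Slfn9 and Slfn8 are adjacent long members on the same strand. Their coding sequences are both 2730 bases long and 92.7% identical, and their promoter windows are 82.67% identical over 300 bases. The windows are shown side by side because the 2 genes differed in level within tumors as given below. The interferon-stimulated response element is in capitals, and its first base is at position -48 from the start of Slfn8 (chr11:83020761-83021060, minus strand) and -45 from the start of Slfn9 (chr11:82991781-82992080, minus strand). The 10 bases of the element are the same in both. RefSeq gives a second start for Slfn8, from which the same element is at position -136, and the window shown is that of the first.
Slfn8 promoter: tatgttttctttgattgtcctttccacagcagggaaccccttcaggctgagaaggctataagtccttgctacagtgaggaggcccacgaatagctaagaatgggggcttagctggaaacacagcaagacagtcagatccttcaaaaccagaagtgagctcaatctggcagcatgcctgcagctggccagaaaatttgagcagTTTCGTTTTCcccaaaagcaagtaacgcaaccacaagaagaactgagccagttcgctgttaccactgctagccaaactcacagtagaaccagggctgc
Slfn9 promoter: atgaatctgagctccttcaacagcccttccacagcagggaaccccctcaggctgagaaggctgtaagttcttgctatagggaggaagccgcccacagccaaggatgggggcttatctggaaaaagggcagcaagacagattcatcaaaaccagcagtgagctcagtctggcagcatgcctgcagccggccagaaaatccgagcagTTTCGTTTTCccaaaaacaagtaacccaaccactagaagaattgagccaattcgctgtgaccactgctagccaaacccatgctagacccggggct

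Slfn9 (ENSMUSG00000069793, chr11:82978390-82991830) was listed at 5.47, 5.24 and 4.23 TPM in Trp53fl/fl and at 0.50, 0.49 and 1.2 TPM in VP. Each VP tumor was below each Trp53fl/fl tumor, and VP replicate 3 was above the other VP tumors. The means were 4.98 ± 0.660 TPM and 0.730 ± 0.407 TPM (SD, n = 3 each), a log2 difference of -1.81 with a standard error of 0.22. Slfn9 reached 1 TPM in 4 tumors, so that it passed the filter through the Trp53fl/fl group.

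Slfn8 (chr11:83002158-83020810) was listed at 6.82, 9.01 and 5.59 TPM in Trp53fl/fl and at 4.62, 5.48 and 3.22 TPM in VP. All VP tumors were below all Trp53fl/fl tumors, but the highest VP tumor nearly reached the lowest Trp53fl/fl tumor. The means were 7.14 ± 1.73 and 4.44 ± 1.14 TPM (SD, n = 3 each), a log2 difference of -0.58 with a standard error of 0.23.

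Within each tumor, Slfn9 was therefore at a different proportion of Slfn8, its closest relative among the coding members compared. The ratio of Slfn9 to Slfn8 was 0.802, 0.582 and 0.757 in the Trp53fl/fl tumors and 0.108, 0.0894 and 0.373 in the VP tumors. Slfn9 made up 44.5%, 36.8% and 43.1% of the summed TPM of the pair in Trp53fl/fl tumors and 9.77%, 8.21% and 27.2% in VP tumors. The groups did not overlap, and VP replicate 3 lay between the other VP tumors and the Trp53fl/fl tumors. The sum of the pair was 12.3, 14.2 and 9.82 TPM in Trp53fl/fl and 5.12, 5.97 and 4.42 TPM in VP, so that the lower Slfn9 was not matched by a higher Slfn8.

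Because the pair is so alike, the division of reads between them was checked against the transcripts. Of the 150-base windows of Slfn9 transcripts, 1.46% occurred exactly in another gene, which was Slfn10-ps, and none of the 150-base windows of Slfn8 did. At 75 bases the shares were 5.90% for Slfn9 and 6.99% for Slfn8. The rest of each transcript differs in at least 1 base over such a window, and how the alignment handled reads that match both genes is not given in the sources used here.

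Slfn10-ps (chr11:83028130-83040042), a transcribed pseudogene of the same group next to Slfn8, was listed at 1.19, 0.84 and 0.35 TPM in Trp53fl/fl, against 0.64, 0.94 and 0.55 TPM in VP. It did not pass the filter, and its groups overlapped. Of its 150-base windows, 2.51% occurred exactly in Slfn9.

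Of the short gene models next to Slfn9 and Slfn10-ps, 1190001M18Rik and Gm11425 likewise had a lower value in each VP tumor than in any Trp53fl/fl tumor. 1190001M18Rik lies within the RefSeq extent of Slfn9 (chr11:82974316-82991830), which is longer at its 3′ end than in GENCODE M21. It was listed at 0.71, 0.33 and 0.22 TPM in Trp53fl/fl and at 0, 0 and 0.07 TPM in VP tumors and did not pass the filter. The processed pseudogene Gm11425 lies 133 bases beyond the 3′ end of Slfn10-ps. It was listed at 1.48, 1.86 and 1.66 TPM in Trp53fl/fl and at 0, 0 and 0.32 TPM in VP tumors, and it passed the filter through the Trp53fl/fl group alone. In both, as in Slfn9, VP replicate 3 was the VP tumor with the highest value, although 0.07 and 0.32 TPM are near 0. The Trp53 level of this tumor was the lowest of all 6 tumors, and a link between these levels was not tested.

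Slfn5 (chr11:82951349-82964840), a long member known as a nuclear protein, was listed at 4.25, 6.53 and 3.86 TPM in Trp53fl/fl, against 12.4, 16.0 and 7.64 TPM in VP. The groups did not overlap, with VP replicate 3 the nearest to the Trp53fl/fl tumors. The means were 4.88 ± 1.44 and 12.0 ± 4.20 TPM (SD, n = 3 each), a 2.46-fold ratio and a log2 difference of 1.12 with a standard error of 0.29. Slfn5 and Slfn8, long members that flank Slfn9, differed in opposite directions. The ratio of Slfn5 to Slfn8 was 0.623, 0.725 and 0.691 in Trp53fl/fl tumors and 2.68, 2.92 and 2.37 in VP tumors, so that Slfn5 was below Slfn8 in each Trp53fl/fl tumor and above it in each VP tumor. The antisense gene Slfn5os was listed at 0 in all tumors, and whether the libraries kept strand is not given in the sources used here, so its reads may not be told apart from those of Slfn5.

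The Slfn5 window is shown because it holds the same kind of motif as Slfn8 and Slfn9 while the gene differed in the other direction. It is chr11:82951852-82952151 in GRCm38.p6, plus strand, from a RefSeq start inside the annotated gene, and the element in capitals has its first base at position -155 from that start.
Slfn5 promoter: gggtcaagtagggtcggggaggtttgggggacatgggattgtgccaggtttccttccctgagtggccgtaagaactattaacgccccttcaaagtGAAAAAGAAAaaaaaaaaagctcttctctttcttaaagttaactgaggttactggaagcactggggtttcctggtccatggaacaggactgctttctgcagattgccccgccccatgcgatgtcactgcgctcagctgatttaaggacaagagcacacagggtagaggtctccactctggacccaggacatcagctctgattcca

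Slfn14 (chr11:83275110-83286726), a long member known as a ribosome-associated endoribonuclease of platelets and red cell precursors, was listed at 0 in all 6 tumors. Its 5′ end lies 4973 bases from the start of AA465934. Red cell and platelet transcripts were present in the same tumors: of a list of 12 such markers 7 passed the filter and 1, Hba-a2, was listed at 0, and the summed TPM was 223 to 542 in Trp53fl/fl and 712 to 1044 in VP tumors.

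**Figure D2:**
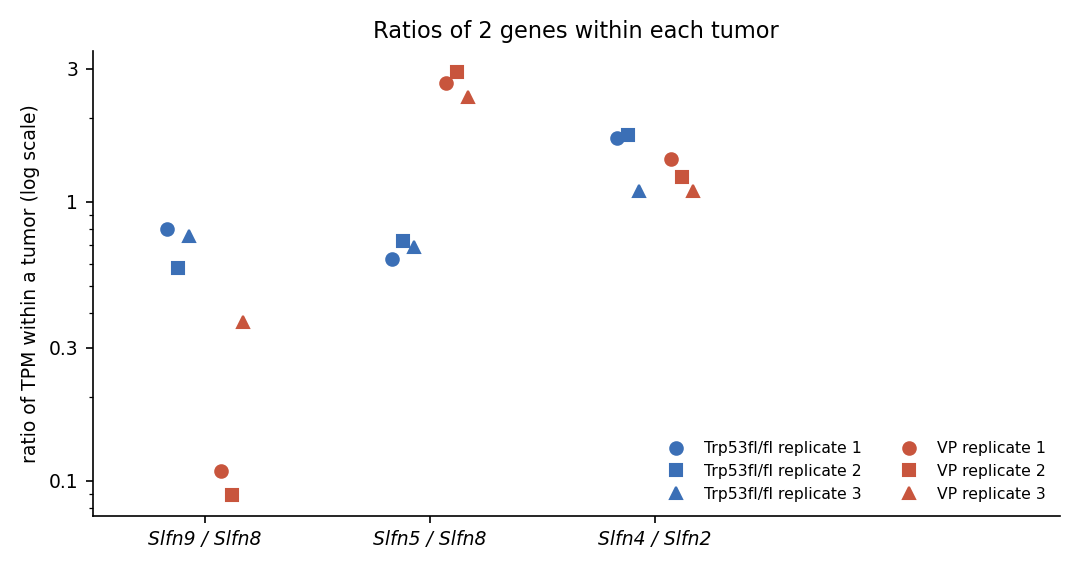
Ratios of the TPM of 2 genes within each tumor, on a log axis, with Trp53fl/fl tumors in blue and VP tumors in red and 1 symbol per replicate. The groups are apart for Slfn9 to Slfn8 and for Slfn5 to Slfn8, and they overlap for Slfn4 to Slfn2.

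The short members are known from T cells, where Slfn1 was described as a brake on growth and Slfn2 as a factor that keeps T cells and monocytes quiescent and viable. Slfn1 (chr11:83116849-83122670) was listed at 2.72, 3.20 and 2.99 TPM in Trp53fl/fl, against 5.95, 6.28 and 7.03 TPM in VP. Its values were tight within each group and well apart between them, with means of 2.97 ± 0.241 and 6.42 ± 0.553 TPM (SD, n = 3 each). The ratio of the means was 2.16 and the log2 difference 0.90 with a standard error of 0.15.

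Slfn2 (chr11:83065112-83070678) was listed at 25.4, 22.5 and 35.7 TPM in Trp53fl/fl, against 38.4, 54.2 and 36.6 TPM in VP. The groups did not overlap, but Trp53fl/fl replicate 3 and VP replicate 3 were nearly equal. The means were 27.9 ± 6.91 and 43.1 ± 9.70 TPM (SD, n = 3 each), a log2 difference of 0.61 with a standard error of 0.22. Slfn1 was at 8.38% to 14.2% of the Slfn2 level in Trp53fl/fl and at 11.6% to 19.2% in VP tumors, and these shares overlapped. T cell markers were read in the same tumors. Of the 12 on the list 10 were tested, limma called none, and none had an unadjusted limma p under 0.05. Of the 10 differences 9 were below 0, with a median of -0.20, while 39.2% of all genes tested had a difference above 0. The summed level of the T cell markers was 61.6 to 73.7 TPM in Trp53fl/fl and 44.6 to 66.0 TPM in VP tumors. Cd3g, a chain of the T cell receptor complex, had a log2 difference of -0.57 (limma adjusted p = 0.400), and no marker of the list was at 0.

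The intermediate members differ greatly in level although their coding sequences are 92.7% identical over the aligned part. Slfn4 (chr11:83175186-83190216), known as an interferon-regulated gene of myeloid cells, was listed at 43.0, 39.1 and 39.0 TPM in Trp53fl/fl, against 54.9, 66.4 and 40.03 TPM in VP. VP replicate 3 was below Trp53fl/fl replicate 1, so the groups overlapped, and the spread within VP (53.8 ± 13.2 TPM, SD, n = 3) was far wider than within Trp53fl/fl (40.3 ± 2.27 TPM, SD, n = 3). The log2 difference was 0.38 with a standard error of 0.18.

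Slfn3 (chr11:83191330-83215154), which has been tied to enterocyte differentiation in the gut, was listed at 0.87, 1.42 and 1.06 TPM in Trp53fl/fl, against 0.76, 1.49 and 0.34 TPM in VP. It passed the filter in exactly 3 tumors, its groups overlapped, and its log2 difference of -0.22 was smaller than its standard error of 0.28. Slfn3 was at 0.849% to 3.63% of the Slfn4 level in the same tumor. The enterocyte differentiation genes, of which 11 of 13 were tested, had a median difference of 0.06 with none called by limma and 1 gene in each direction at an unadjusted p under 0.05.

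An 11-base run, in capitals below, was found in the promoter windows of Slfn1, Slfn2 and Slfn4. It is in 24 of the 32851 RefSeq promoters (0.0731%), it was chosen after the sequences had been compared with each other, and it is shown as a shared feature that the choice of members did not use. The members with the whole run had log2 differences above 0, and a relation of the run to the differences was not tested. The first 9 of its bases, ACTTCCTGG, are also at position -42 of Slfn3, which had a difference below 0. The last 9, TTCCTGGAG, are at position -127 of Slfn14, which was listed at 0. The whole run is absent from the windows of Slfn5 and AA465934, which were higher in VP tumors. The first base of the whole run is at position -74, -55 and -73 from the respective starts. The stretches are chr11:83116731-83116771, chr11:83065042-83065082 and chr11:83175098-83175138 in GRCm38.p6, plus strand. As whole windows, the 3 promoters were 49.0% to 53.67% identical to each other, against 82.67% for Slfn8 and Slfn9.
Slfn1: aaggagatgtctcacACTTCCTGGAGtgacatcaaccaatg
Slfn2: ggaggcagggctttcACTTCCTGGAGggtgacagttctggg
Slfn4: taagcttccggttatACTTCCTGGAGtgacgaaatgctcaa

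Ordered by mean TPM over the 6 tumors, the members ran Slfn4, Slfn2, AA465934, Slfn5, Slfn8, Slfn1, Slfn9, Slfn3, Slfn10-ps and Slfn14. Slfn4 and Slfn2 together made up 70.1% to 80.5% of the summed Schlafen TPM in every tumor. Neighbours in this order were compared within tumors by an exact two-sided sign-flip permutation test of log2(TPM + 1), over 9 pairs. The pairs and their direction were taken from the same 6 tumors, over both genotypes. Slfn4 was above Slfn2 in 6 of 6 tumors by a mean of 0.42 ± 0.29 on the log2 scale (SD, exact p = 0.03125, Benjamini-Hochberg adjusted p = 0.09375), and 0.03125 is the smallest p that 6 tumors can give. Slfn2 was above AA465934 by 2.07 ± 1.28 and Slfn10-ps above Slfn14 by 0.79 ± 0.25, each in 6 of 6 tumors and with the same exact p. The other 6 neighbouring pairs had exact p from 0.1875 to 0.9688. No pair passed the adjusted threshold, and 3 did so without adjustment. Those 3 pairs were at the smallest possible p, which adjustment over the 9 pairs raised to 0.09375 whatever the size of the step. The adjusted test therefore could not decide on these steps, and nothing is concluded from it. Slfn14 was at 0 in every tumor, so a detected gene could only lie above it.

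The order itself differed between genotypes below the top pair. In Trp53fl/fl tumors Slfn8, Slfn9 and Slfn5 came next, at means of 7.14, 4.98 and 4.88 TPM, followed by Slfn1 and, at 2.11 TPM, AA465934. In VP tumors AA465934 came directly below the top pair at 22.1 TPM, followed by Slfn5, Slfn1 and Slfn8, and Slfn9 at 0.730 TPM was below Slfn3 at 0.863 TPM. The means of Slfn9 and Slfn3 in VP tumors differed by less than their SDs of 0.407 and 0.582 TPM.

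The genes around the members were examined to see whether the whole region differed between genotypes. Between the outermost members the table lists 14 other genes, of which 9 were at 0 in all tumors and 2 passed the filter, Gm11425 and AI662270. With the 10 nearest tested genes on either side, 22 neighbours were tested, over chr11:82045712-83664683. Limma called none of them, 4 were higher and 3 lower at an unadjusted p under 0.05, and the median difference was 0.14. Without overlap between the genotypes there were 3 of the 22 neighbours higher and 3 lower in VP tumors, against 6.03% and 13.3% of all genes tested. Gm11425 had the smallest limma p, at a log2 difference of -1.28 with a standard error of 0.22 (adjusted p = 0.123). The next were the chemokine genes Ccl3, at 2.63, 3.42 and 5.09 TPM in Trp53fl/fl and 10.4, 31.6 and 11.5 TPM in VP tumors (log2 difference 1.86, limma adjusted p = 0.243), and Ccl4 (1.27, limma adjusted p = 0.331), which are products of myeloid and lymphoid cells. Rffl, a ubiquitin ligase gene, followed at -0.31 (limma adjusted p = 0.378).

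**Figure D3:**
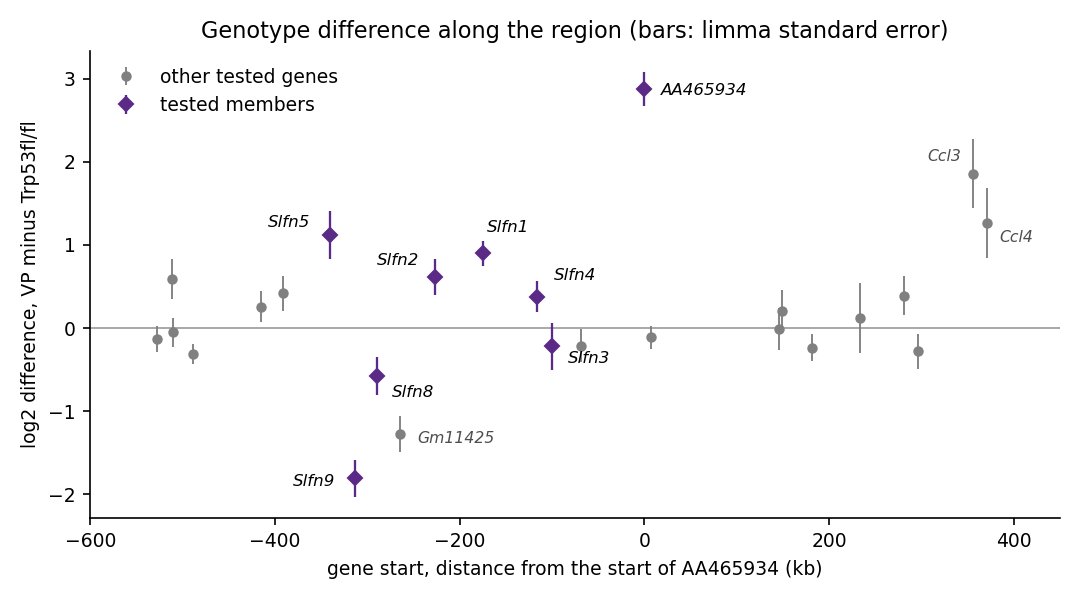
Log2 difference, VP minus Trp53fl/fl, of the 8 tested members (purple) and of 17 other tested genes (grey) against the distance of the gene start from the start of AA465934 in kb, with the limma standard error as bars. The 4 tested genes that lie farther to the left are not drawn. Members above and below 0 are interspersed along the region.

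Interferon-stimulated genes were examined in the same tumors because several Schlafen genes belong to that response. Of 30 type I interferon-stimulated genes, all of which were tested, limma called none at an adjusted p under 0.05, while 23 had an unadjusted p under 0.05, each higher in VP, against 4.51% of all genes tested. The genotypes did not overlap in 17 of the 30, each with VP higher, against 6.03% of all genes tested, and the median log2 difference was 0.91 against -0.07 over all genes tested. Isg15, a ubiquitin-like modifier, was at 50.3, 49.8 and 56.7 TPM in Trp53fl/fl and at 157, 182 and 85.8 TPM in VP tumors, with VP replicate 3 the lowest of VP and still above the Trp53fl/fl tumors (log2 difference 1.35, standard error 0.27, limma adjusted p = 0.182). Usp18, which removes Isg15 from proteins, and Xaf1, a pro-apoptotic gene, had log2 differences of 0.85 and 1.30 (limma adjusted p = 0.168 and 0.191).

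Of 21 genes induced by interferon gamma, limma called none, 8 had an unadjusted p under 0.05 with VP higher, and the median difference was 0.50. Psmb8 and Psmb9, subunits of the immunoproteasome, and Tap1, a peptide transporter for antigen presentation, had log2 differences of 1.24, 1.17 and 1.05 (limma adjusted p = 0.183, 0.269 and 0.269).

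The summed level of the 9 Schlafen genes was 89.7, 87.9 and 92.7 TPM in Trp53fl/fl tumors and 118, 151 and 96.6 TPM in VP tumors. The VP values were all higher, but VP replicate 3 was close to the Trp53fl/fl tumors. The summed type I interferon-stimulated genes were 687 to 755 TPM in Trp53fl/fl and 1328, 1897 and 1042 TPM in VP replicates 1, 2 and 3. Replicate 2 was thus the highest and replicate 3 the lowest VP tumor for both sums, and the same held one by one for Slfn4, Slfn2, Slfn5 and AA465934 and also for Slfn8, Slfn3 and Slfn10-ps, whose means were not higher in VP tumors. Slfn1 and Slfn9 did not follow this order, since their highest VP values were in replicate 3. The order is not particular to interferon-stimulated genes. In VP replicates 1, 2 and 3 the platelet and red cell markers summed to 812, 1044 and 712 TPM. The B cell markers summed to 15.8, 34.9 and 12.7 TPM. The sums of the remaining lists did not have this order, and its share over all genes was not computed. The part of the interferon-stimulated genes in the differences of the members was not tested.

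Myeloid, epithelial and other marker lists were read in the same tumors. Of 16 neutrophil markers 14 were tested, and all 14 differences were above 0, against 39.2% of all genes tested. Their median was 1.29, with summed levels of 881 to 1550 TPM in Trp53fl/fl and 2152 to 3315 TPM in VP tumors. Of the 14, 10 had an unadjusted limma p under 0.05 with VP higher, against 4.51% of all genes tested. The genotypes did not overlap in 9, each with VP higher, against 6.03%. One was called by limma: Ngp, a protein of neutrophil granules, rose from 0.81, 0.21 and 0.62 TPM to 48.4, 18.2 and 32.1 TPM (adjusted p = 0.00804). It reached 1 TPM in 3 tumors, all of them VP, so that it passed the filter through the group where it was high. The 12 macrophage and monocyte markers had a median of 0.15, none called by limma, 3 with an unadjusted p under 0.05, and sums that overlapped, at 1299 to 1402 TPM and 1153 to 1601 TPM. Cd68, a lysosomal marker of macrophages, was at a difference of 0.53 (limma adjusted p = 0.270). Slfn4 and Slfn2 lay at 0.38 and 0.61, between the macrophage and neutrophil medians. Slfn1 at 0.90 and Slfn5 at 1.12 lay there too, so that this place does not set Slfn4 and Slfn2 apart. The 12 epithelial markers had a median of 0.23, none called by limma, 4 with an unadjusted p under 0.05, and sums of 11330 to 11630 TPM in Trp53fl/fl and 13190 to 14000 TPM in VP tumors. Of 8 B cell markers 2 were tested, with a median of 0.01 and sums that overlapped. Of 11 hedgehog pathway genes 8 were tested, with a median of -0.13, none called by limma and none at an unadjusted p under 0.05. No marker of these lists was at 0 in all tumors apart from Hba-a2, and the part of any of these cell types in the levels of the members was not tested.

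**Figure D4:**
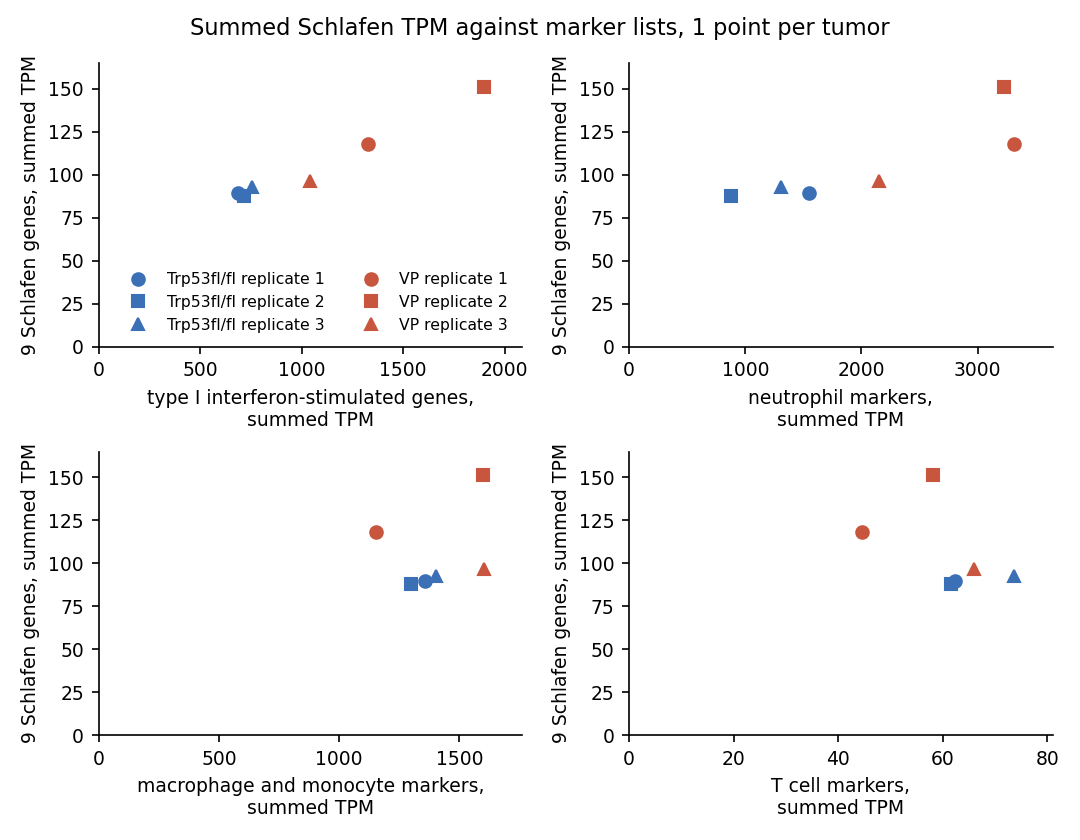
Summed TPM of the 9 Schlafen genes (vertical axes) against the summed TPM of 4 gene lists (horizontal axes), 1 point per tumor, Trp53fl/fl in blue and VP in red. The 3 VP tumors stand to the right of the Trp53fl/fl tumors for type I interferon-stimulated genes and neutrophil markers, while macrophage and T cell sums overlap between the genotypes.

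The genes whose levels followed those of the members most closely were listed by Pearson's r of log2(TPM + 1) over the 6 tumors, as a description with no p. The points come from 2 genotypes and are few, so that any gene that differs steadily between genotypes scores high. The 5 genes most like AA465934 were Galnt6, a glycosyltransferase gene (r = 0.997), Plac9a (0.995), Gm29787 (0.994), and the complement genes Cfb (0.993) and C2 (0.990). Gm29787 was at 0 in each Trp53fl/fl tumor and at 3.1 to 6.21 TPM in VP tumors, so that it passed the filter through the VP group alone. Cfb was at 70.5 to 72.6 TPM in Trp53fl/fl and 131 to 170 TPM in VP tumors, and Plac9a at 8.41 to 8.82 and 40.9 to 54.9 TPM, so that in both the VP tumors lay above the Trp53fl/fl tumors, as they did for AA465934. Both varied less within Trp53fl/fl than AA465934, which was at 1.69 to 2.60 TPM there. The 5 genes most like the summed Schlafen level were Rab34 (0.997), the transferrin gene Trf (0.996), Oas3 (0.992), Pnkd (0.983) and Helz2 (0.982), of which Oas3 makes an interferon-induced RNA sensor. Among the members, AA465934 had r = 0.955 with Slfn1 and -0.979 with Slfn9, over the same 6 tumors. Slfn5 had r = 0.867 with Slfn4, and Slfn8 had r = 0.679 with Slfn9.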

How the data were processed

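RNA of 6 AOM/DSS tumors was sequenced as poly(A)-selected paired-end libraries. The authors deposited gene TPM with 2 decimals. Their processing notes name HISAT2, StringTie and mm9, with no versions. Column sums were 999964 to 1000067. TPM carry no depth, so precision rests on the 3 tumors of each genotype. Coordinates were taken by gene ID from GENCODE M21 (GRCm38), with 52093 of 54167 IDs matched. They do not come from the deposited table. Promoters are RefSeq windows on GRCm38.p6.

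The main fit was limma 3.58.1 (R 4.3.3) with trend on log2(TPM + 1) of the 15117 genes that reached 1 TPM in 3 tumors or more, as VP minus Trp53fl/fl, two-sided, with Benjamini-Hochberg adjustment and a threshold of 0.05. It was tested on simulated data, where 62% of 2-fold and 86% of 4-fold changes were recovered and 10 of 158 calls were false. The changes were set on the log2(TPM + 1) scale and put only into genes above a minimum mean level. Slfn9 and Slfn3 lie below that level, so the recovery does not cover genes as low as these. Order was tested by exact sign-flip permutation (scipy 1.17.1). The members, gene lists and tests were chosen with earlier results of these data known. Genes named are all members, Trp53, the 4 neighbours of smallest limma p, up to 3 uncalled genes of each list or its called genes, and the 5 genes most correlated with AA465934 and with the Schlafen sum. 1190001M18Rik and AI662270 were named after their values were seen. The antisense and hosted genes Slfn5os and Snord7 were named for their position. Of the neighbouring genes, 1 is counted but not reported here. Alternatives were another pseudocount (0.1), filters on low values, a median-of-ratios rescaling, centring on epithelial markers, a replicate block, no trend and leaving out each tumor.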

Additional observations from a re-analysis of the deposited data

How the results depend on the processing

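The members were picked with this contrast known, so the number called is a description and its stability supports nothing. The 2 members called were AA465934 and Slfn9. AA465934 alone was left with a pseudocount of 0.1, with no filter, with median-of-ratios rescaling and with the replicate block. With a mean of at least 5 TPM AA465934 was called and Slfn9, at a mean of 2.855 TPM, was not tested. Both were called with epithelial centring and with no trend. Leaving out tumors gave 1 to 2: 2 without VP replicate 3 and 1 without any other tumor. No member changed sign, with ranges of 2.66 to 3.33 for AA465934, -2.71 to -1.71 for Slfn9, 0.90 to 1.39 for Slfn5, 0.68 to 1.09 for Slfn1, 0.40 to 0.80 for Slfn2, 0.16 to 0.57 for Slfn4, -0.80 to -0.41 for Slfn8 and -0.50 to -0.01 for Slfn3. Over all genes the 25 calls (12 higher, 13 lower) became 7 with no filter and 18 with a mean of at least 5 TPM. They became 20 with median-of-ratios rescaling (12 higher, 8 lower) and 61 with epithelial centring (15 higher, 46 lower). There were 10 with the replicate block (7 higher, 3 lower), 19 with no trend and again 25 with a pseudocount of 0.1. Without 1 tumor there were 6 to 28. These were 8, 17 and 10 without Trp53fl/fl replicates 1, 2 and 3, and 9, 6 and 28 without VP replicates 1, 2 and 3. The fits with no filter and with a mean of at least 5 TPM tested other sets of genes, whose sizes are not given here. Epithelial centring moved the median of all genes from -0.07 to -0.29, and the macrophage median to -0.07. The 1 list gene called became 2 with a pseudocount of 0.1 and with epithelial centring, 0 with no filter (limma), and 1 to 2 without 1 tumor. Without VP replicate 2 the interferon gamma median was 0.19. Medians of the B cell and enterocyte lists changed sign in 5 and 3 alternatives. No neighbour was called in any alternative. No step in the order was called either, but with 5 tumors the smallest exact sign-flip permutation p is 0.0625, so leaving out a tumor could not give a call. The deviations of same-numbered tumors correlated at 0.0185, -0.052 and 0.0175, and those of differently numbered tumors at -0.108 to 0.0952. Same-numbered tumors were thus no more alike than others, but so few tumors cannot decide whether the numbers pair them. The cause of these changes was not tested. TPM without counts leave the error of the low members Slfn3, Slfn9 and Slfn10-ps unknown.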
